A study of Mus musculus with 9 samples.

Results

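The genes described here mostly build and sulfate glycosaminoglycans, the long sugar chains of proteoglycans. They are 42 named mouse genes listed for chondroitin, dermatan and heparan sulfate synthesis, sulfation and precursor supply. Of these, Chst1 and Chst2 sulfate galactose and N-acetylglucosamine, and Sulf1 and Sulf2 remove sulfate from finished heparan chains. All 42 were found among the 25239 gene symbols of the deposited table. The members were listed by name and role, with earlier results of these data known, and 41 of them passed the filter for testing (a mean of at least 1 FPKM over all libraries). FPKM, fragments scaled to transcript length and library size, is a level per length and can be compared between genes. The study measured poly(A) RNA in primary astrocytes, a glial culture from the cerebral cortex of mouse pups at postnatal day 4. Control cultures received no peroxide. The treated cultures received 200 µM H2O2 for 3 h, were washed, and were harvested 24 h (day 1) or 72 h (day 3) after the wash. Each of these 3 groups has 3 libraries; the labels give neither strain, genotype and sex of the pups nor the harvest time of the controls. Nor do they say whether replicates were separate cultures; the spread behind each p-value is that of the libraries and may be technical only. In bulk RNA, fewer cells of a type and less RNA per cell cannot be told apart.

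A chondroitin, dermatan or heparan sulfate chain starts with a short sugar linker on a serine of a core protein. The next sugar decides whether a chondroitin or a heparan chain grows, and sulfotransferases and epimerases of the Golgi then write a sulfation pattern that sets which growth factors and receptors the chain binds. All of these sulfotransferases use one activated sulfate donor, PAPS. Astrocytes are a main source of chondroitin sulfate proteoglycans in brain tissue and in glial scars, where the chains are known for their inhibition of axon growth.

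The libraries hold 23032594 to 38414668 reads, as worked out from the FPKM, and the tested members have at least 117 reads in every library. The ribosomal RNA precursor transcript Rn45s took 7.67% to 11.9% of the reads, more in each control library than in any day 1 library. The culture carried astrocyte markers, with Gfap at 1493 ± 33.7 FPKM in control (SD, n = 3 here and below). Endothelial markers were low, with 1 of 8 above the filter and Cldn5 listed at 0 in the day 1 and day 3 libraries. Of 8 neuron markers, 3 passed it. Microglia and oligodendrocyte lineage markers were present, and the marker levels that moved with the treatment are given beside the counts.

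Promoter windows show the sequence at the start sites of the tested members changed by at least 0.5 on the log2 scale against control. These are Glce, Papss2 and Chst14, and Papss1 is added as the relative of Papss2. Each runs from 250 bases before to 50 bases after an annotated start (GRCm38.p6), and such windows were found for 34 of the 42 members. Chsy3, which was under the filter and changed more than Glce in the fit without a filter, was not among them. Motif letters are in capitals: the GC box GGGCGG, the CCAAT box CCAAT, the E-box CACGTG and the antioxidant response core TGACNNNGC, all searched on both strands and chosen with the values known. The Glce window lies at chr9:62122560-62122859 on the minus strand, Papss2 at chr19:32595465-32595764 (plus), Papss1 at chr3:131564518-131564817 (plus) and Chst14 at chr2:118926247-118926546 (plus). For Papss1 and Papss2 this is the most upstream of their windows, and its start is not the gene start printed further below.
Glce: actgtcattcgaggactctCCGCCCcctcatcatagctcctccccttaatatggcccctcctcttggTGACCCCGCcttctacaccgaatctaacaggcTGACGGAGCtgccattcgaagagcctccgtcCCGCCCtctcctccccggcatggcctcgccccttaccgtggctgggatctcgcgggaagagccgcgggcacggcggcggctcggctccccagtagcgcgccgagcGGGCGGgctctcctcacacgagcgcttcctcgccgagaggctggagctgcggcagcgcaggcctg
Papss2: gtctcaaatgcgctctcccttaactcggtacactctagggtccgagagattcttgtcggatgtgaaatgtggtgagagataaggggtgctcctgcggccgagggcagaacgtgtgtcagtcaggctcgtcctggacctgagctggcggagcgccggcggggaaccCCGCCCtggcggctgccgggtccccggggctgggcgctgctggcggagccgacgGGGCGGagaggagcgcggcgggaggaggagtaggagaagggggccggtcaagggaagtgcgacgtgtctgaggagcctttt
Papss1: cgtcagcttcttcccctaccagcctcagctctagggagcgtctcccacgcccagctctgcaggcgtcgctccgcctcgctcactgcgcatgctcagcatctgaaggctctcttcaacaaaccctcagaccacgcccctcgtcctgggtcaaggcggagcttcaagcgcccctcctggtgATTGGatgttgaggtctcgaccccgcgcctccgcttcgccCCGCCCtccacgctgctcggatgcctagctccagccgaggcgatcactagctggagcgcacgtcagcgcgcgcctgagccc
Chst14: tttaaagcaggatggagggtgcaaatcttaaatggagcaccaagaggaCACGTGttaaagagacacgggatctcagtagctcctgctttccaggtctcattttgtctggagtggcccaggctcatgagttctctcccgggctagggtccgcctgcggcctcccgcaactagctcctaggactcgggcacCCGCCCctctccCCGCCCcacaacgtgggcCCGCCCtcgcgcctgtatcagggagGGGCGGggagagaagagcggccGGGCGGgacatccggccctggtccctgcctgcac
The Glce window holds 2 antioxidant response cores, at -183 and -151 from the start, and 3 GC boxes. Among all 32851 windows of this length, 12.4% hold at least 1 such core and 0.986% hold 2 or more. A GC box stands in 35.7% of all windows and in each of the 4 printed, a CCAAT box in 37.4% of all and in the Papss1 window, and an E-box in 7.15% of all and in the Chst14 window. These matches describe letters only, since no factor binding was measured.

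On day 1 the set split nearly evenly. Of 41 members tested, 14 were higher than in control and 12 lower (limma, Benjamini-Hochberg adjusted p under 0.05 over 12611 genes), where 31.1% of all genes tested were higher and 31.1% lower. Together 63.4% of the members were called, against 62.2% of all genes, so the share called was near the background. The median log2 change of the members was 0.01, against -0.0014 for all genes. Of the called members, 12 rose and 3 fell by at least 0.25 on the log2 scale, where 17.3% and 19.2% of all genes did. The summed level of all 42 genes was 935 ± 16.1 FPKM in control, 960 ± 9.84 on day 1 and 964 ± 18.8 on day 3.

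Marker lists moved in the same comparison. All 9 tested microglia markers were lower on day 1 (summed level 312 to 341 FPKM in the control libraries, 127 to 143 on day 1, 258 to 330 on day 3), as were 9 of 9 oligodendrocyte lineage markers (621 to 657, 413 to 447 and 532 to 565 FPKM). Of 10 astrocyte markers, 2 were higher and 6 lower (2799 to 2868, 2075 to 2340 and 2573 to 2608 FPKM). Mural markers were higher in 4 of 5 (1150 to 1248, 2130 to 2205 and 1073 to 1163 FPKM), and fibroblast markers split 4 and 4, with a summed level of 920 to 988 FPKM in control, 2011 to 2145 on day 1 and 1077 to 1324 on day 3. All 4 tested ependymal markers were lower (128 to 139, 75.4 to 84.7 and 116 to 131 FPKM), while 3 of 3 neuron markers were higher (101 to 102, 109 to 112 and 109 to 110 FPKM). The 1 endothelial marker tested was not called (list summed to 12.9 to 14.0 FPKM in control, 13.1 to 13.9 on day 1 and 15.1 to 16.3 on day 3). No marker of these lists was at 0 in every library, and their part in the member results was not tested.

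**Figure D1:**
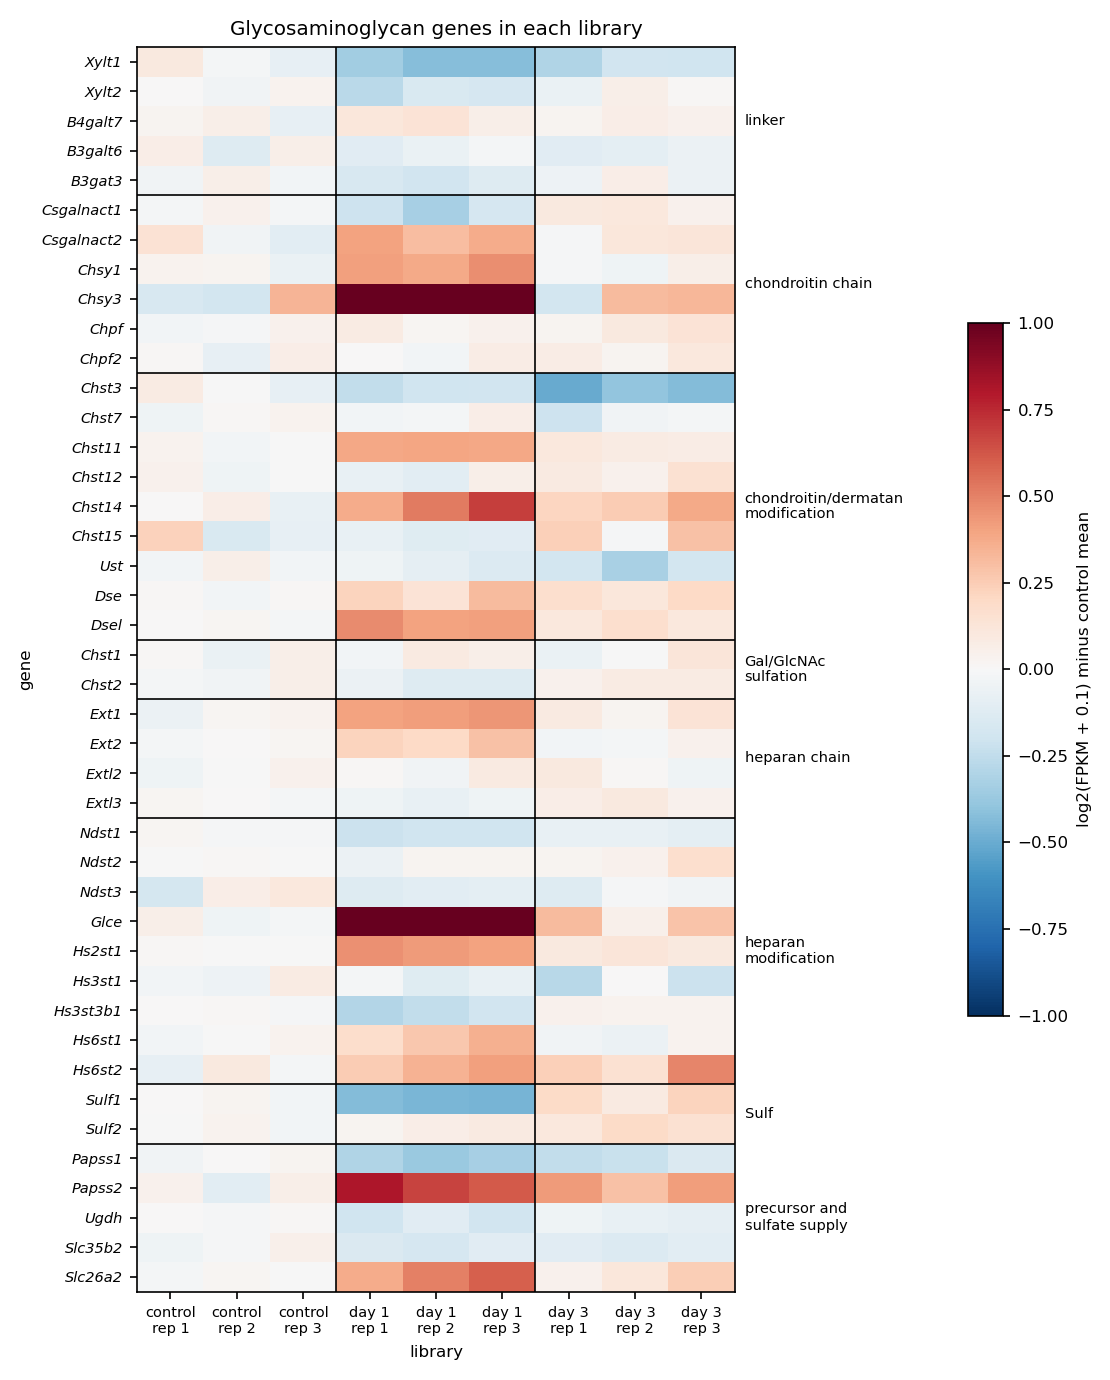
Each row is a gene, grouped by role, and each column a library; colour gives log2(FPKM + 0.1) after rescaling minus the control mean, red for higher and blue for lower, and the darkest red is capped. The day 1 columns stand apart from control and day 3 in both directions, with Chsy3 and Glce darkest, and Sulf1 is blue on day 1 and pale red on day 3.

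In the reported fit the linker enzymes were lower or not called on day 1. Xylt1 and Xylt2 attach the xylose that starts chondroitin, dermatan and heparan chains, and both fell. Xylt1 read 12.8, 12.1 and 11.6 FPKM in control, 9.32, 8.91 and 8.67 on day 1 and 9.78, 10.3 and 10.5 on day 3. All day 1 and day 3 libraries lay under the lowest control. The fall was 1.32-fold on day 1 (log2 change -0.40, adjusted p = 6.13e-05) and 1.17-fold on day 3 (adjusted p = 0.0151), and the day 3 call did not hold without control replicate 1 (0.0505) or day 3 replicate 1 (0.0621). Xylt2 fell 1.15-fold on day 1, from 8.97 ± 0.243 to 7.65 ± 0.350 FPKM, and was back at 8.87 ± 0.314 on day 3. B3gat3, which adds the glucuronic acid that completes the linker, fell 1.12-fold on day 1. The galactosyltransferase genes B4galt7 and B3galt6, which add the middle sugars, changed by 0.11 (95% interval 0.0041 to 0.21) and -0.07 (-0.22 to 0.08) on the log2 scale and were not called. B4galt7 was called higher with quantile normalization (adjusted p = 0.0498) and without control replicate 2 (adjusted p = 0.0449).

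Chondroitin chain genes split between close relatives. Csgalnact1 and Csgalnact2 both add the N-acetylgalactosamine that commits a linker to chondroitin. Csgalnact1 fell from 3.88 ± 0.130 to 3.20 ± 0.158 FPKM on day 1 (log2 change -0.24, adjusted p = 0.00444), while Csgalnact2 rose from 5.02 ± 0.398 to 6.32 ± 0.181 (0.36, adjusted p = 0.000852). Their ratio within a library was 1.45, 1.23 and 1.22 in control, 1.99, 2.04 and 1.90 on day 1 and 1.20, 1.30 and 1.37 on day 3, so day 1 lay above both other groups. Neither gene was called on day 3 against control.

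Chsy1 and Chsy3 encode chondroitin synthases, which extend the chain. Chsy1 read 17.8, 18.1 and 16.9 FPKM in control, 22.9, 22.6 and 23.4 on day 1 and 17.4, 16.6 and 18.3 on day 3. It rose 1.33-fold on day 1 (95% interval 1.25 to 1.42, adjusted p = 7.57e-06) and overlapped control on day 3. Chsy3 was the 1 member under the filter, at 0.247, 0.248 and 0.401 FPKM in control, 1.07, 0.795 and 1.16 on day 1 and 0.245, 0.380 and 0.393 on day 3. These levels stand for 29 to 49 reads in control, 86 to 104 on day 1 and 29 to 56 on day 3, and day 1 did not overlap the others. In the fit without a filter, over 20350 genes, its log2 change was 1.51 on day 1 (adjusted p = 0.000475) and 0.16 on day 3 (adjusted p = 0.770). The polymerizing factors Chpf and Chpf2, partners of the synthases, were not called on either day. In GENCODE M21, 44.1% of the exon bases of Chpf2 lie opposite exons of Smarcd3, with strand handling not given in the sources used here.

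**Figure D2:**
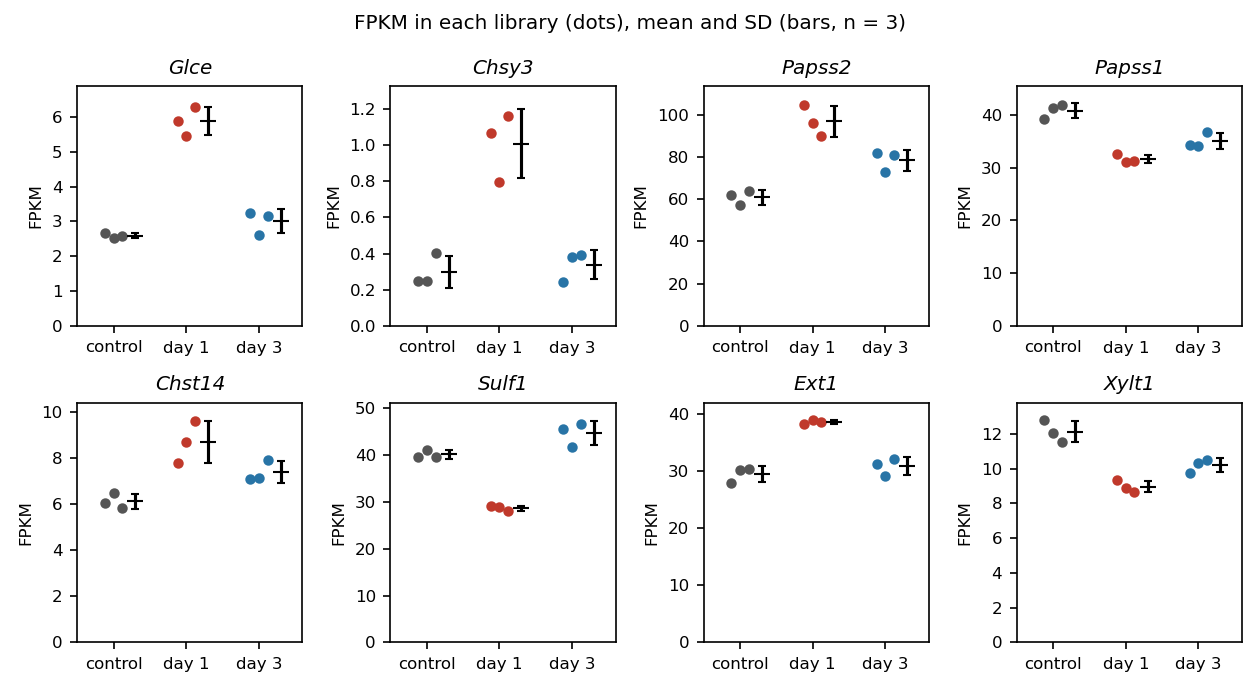
FPKM as deposited for 8 genes; each dot is a library, and the bar beside each group is the mean and SD of its 3 libraries. Glce, Chsy3, Papss2, Chst14 and Ext1 are highest on day 1, Papss1 and Xylt1 are lowest there, and Sulf1 falls on day 1 and lies above control on day 3.

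Dermatan and 4-O-sulfation genes made up the rises among the enzymes that modify chondroitin. Chst14, the 4-O-sulfotransferase of dermatan sulfate, read 6.05, 6.46 and 5.84 FPKM in control, 7.78, 8.71 and 9.59 on day 1 and 7.09, 7.13 and 7.93 on day 3. Every treated library was above every control library, and the 2 treated groups overlapped. It was 1.44-fold higher on day 1 (95% interval 1.28 to 1.62, adjusted p = 0.000149) and 1.22-fold higher on day 3 (adjusted p = 0.0352). The day 3 call was lost in each fit without 1 control or 1 day 3 library, and without day 1 replicate 2 (adjusted p = 0.0516 to 0.124).

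Dse and Dsel encode the epimerases that turn chondroitin into dermatan. Dsel rose from 5.48 ± 0.105 to 7.25 ± 0.227 FPKM on day 1 (1.35-fold, adjusted p = 6.33e-06) and Dse from 6.79 ± 0.102 to 7.78 ± 0.380 (1.17-fold, adjusted p = 0.00212). On day 3 they were at 5.93 ± 0.0758 and 7.50 ± 0.304 FPKM and were not called (adjusted p = 0.0644 and 0.0556). Dse was called higher on day 3 with quantile normalization (adjusted p = 0.0487), in the fit of the 6 libraries compared (0.0428), with the replicate block (0.0361) and with limma-voom on the recovered reads (0.0233). It was also called without day 1 replicate 2 (0.0415) or 3 (0.0360), and Dsel was called with limma-voom (adjusted p = 0.0374).

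Chst11 and Chst3 sulfate the same sugar of chondroitin at different positions, 4-O and 6-O, and moved apart. Chst11 read 40.8, 40.2 and 40.6 FPKM in control, 52.0, 52.8 and 51.2 on day 1 and 43.5, 41.9 and 42.6 on day 3, with no overlap between groups. It was 1.31-fold higher on day 1 (adjusted p = 2.81e-07) and 1.06-fold higher on day 3 (adjusted p = 0.0328). The day 3 call was lost without control replicate 2 or 3, day 1 replicate 1 or 2, or any day 3 library (adjusted p = 0.0503 to 0.116), without rescaling (0.116) and with quantile normalization (0.0677).

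Chst3 went down in steps, with 2.91, 2.80 and 2.64 FPKM in control, 2.28, 2.39 and 2.34 on day 1 and 1.93, 2.04 and 2.03 on day 3. The groups did not overlap. It fell 1.16-fold on day 1 (log2 change -0.21, adjusted p = 0.0230) and 1.36-fold on day 3 (-0.44, adjusted p = 0.00250), and was the member with the largest fall on day 3. The day 1 call did not hold without control replicate 1 or 2 or day 1 replicate 1 (adjusted p = 0.0892, 0.0518 and 0.0667) or with quantile normalization (0.150). The day 3 call held in each fit without 1 library. The ratio of Chst11 to Chst3 was 14.6 ± 0.720 in control, 22.3 ± 0.465 on day 1 and 21.4 ± 1.07 on day 3, higher in 6 of 6 treated libraries than in any control. An exact two-sided permutation test of 3 libraries against 3 cannot go below p = 0.1, and both comparisons with control gave p = 0.1. Neither gene overlapped between groups and they moved apart, so this p was fixed beforehand and adds no support.

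The other chondroitin modifiers changed little. The 4-O-sulfotransferase gene Chst12 and the 6-O-sulfotransferase gene Chst7 were not called against control. Ust, which sulfates uronic acid at the 2-O position, averaged 4.74 ± 0.207 FPKM without peroxide and 4.35 ± 0.181 on day 1, and fell to 3.98 ± 0.267 on day 3 (log2 change -0.23, adjusted p = 0.0221). That call did not hold without control replicate 2 (0.0790) or day 3 replicate 2 (0.0611). Chst15, which adds a further sulfate to 4-O-sulfated units, varied between replicates (2.93, 2.28 and 2.40 FPKM in control) and was not called. Without control replicate 1 and day 3 replicate 2 together it was called higher on day 3 (log2 change 0.38, adjusted p = 0.0250), and 17.9% of its exon bases overlap the antisense gene Gm10584.

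Of the pair that sulfates galactose and N-acetylglucosamine, Chst2 had the highest level of all members, 149 ± 6.11 FPKM in control against 135 ± 4.42 on day 1. This was 1.07-fold lower (adjusted p = 0.0137), a call that did not hold without control replicate 3 (0.0561) or day 1 replicate 2 (0.0565). Chst1, known for keratan sulfate, stood at 1.72 ± 0.0809 FPKM in control and 1.73 ± 0.0797 on day 1 and was not called, with a 95% interval of -0.15 to 0.23 on the log2 scale.

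Of the 4 heparan chain genes, the polymerase pair rose on day 1. Ext1 and Ext2 together form the enzyme that extends heparan chains. Ext1 read 27.8, 30.1 and 30.3 FPKM in control, 38.2, 38.9 and 38.6 on day 1 and 31.2, 29.2 and 32.1 on day 3. Day 1 stood above all other libraries, and day 3 overlapped control. Ext1 rose 1.34-fold on day 1 (95% interval 1.27 to 1.41, adjusted p = 2.26e-06) and Ext2 1.18-fold, from 22.0 ± 0.538 to 25.4 ± 0.526 FPKM (adjusted p = 9.27e-05). On day 3 neither was called. Extl3, which starts the heparan chain, and Extl2 were not called against control, although Extl3 was called lower on day 1 without rescaling (log2 change -0.09, adjusted p = 0.0140) and with quantile normalization (-0.10, adjusted p = 0.00735).

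Glce changed most among the tested members. It encodes the epimerase that converts glucuronic to iduronic acid in heparan sulfate, and lies on chromosome 9 from 62057244 to 62122609. Glce read 2.66, 2.52 and 2.58 FPKM in control, 5.89, 5.47 and 6.29 on day 1 and 3.23, 2.62 and 3.17 on day 3. The day 1 libraries lay far above the others, and 1 day 3 library fell within the control range. The rise was 2.27-fold on day 1 (95% interval 2.00 to 2.58, adjusted p = 7.11e-07). On day 3 the 1.16-fold difference from control was not called (adjusted p = 0.114), and day 3 was 1.95-fold below day 1 (adjusted p = 4.84e-06). Glce was called higher on day 3 with limma-voom (log2 change 0.23, adjusted p = 0.0210), without day 3 replicate 2 (0.30, adjusted p = 0.0296), and without that library and control replicate 1 (0.33, adjusted p = 0.0394).

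The 2-O- and 6-O-sulfotransferase genes of heparan sulfate rose with it. Hs2st1, which sulfates iduronic acid, read 24.9, 25.2 and 25.3 FPKM in control, 34.0, 33.5 and 32.0 on day 1 and 26.8, 26.6 and 26.7 on day 3, with no overlap between groups. It was 1.35-fold higher on day 1 (adjusted p = 2.20e-07) and 1.07-fold higher on day 3 (adjusted p = 0.0226). The day 3 call was lost in each fit without 1 control or 1 day 3 library (the highest adjusted p was 0.0682) or without rescaling (0.0890). Hs6st1 rose 1.20-fold on day 1, from 19.6 ± 0.687 to 23.1 ± 1.26 FPKM, and was at 19.1 ± 0.807 on day 3; 8.07% of its exon bases overlap the antisense gene Gm37335. Hs6st2 rose 1.26-fold on day 1 (4.18 ± 0.319 to 5.19 ± 0.257 FPKM, adjusted p = 0.00580) and was 1.23-fold higher on day 3 (5.11 ± 0.697 FPKM, adjusted p = 0.0475). That day 3 call held in 1 of 9 fits without 1 library, the one without day 3 replicate 2, and otherwise had adjusted p of 0.0523 to 0.139. It did not hold without rescaling either (0.0720).

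Other heparan modifiers moved down or were not called. Ndst1, the main N-deacetylase and N-sulfotransferase, fell from 59.6 ± 0.124 to 50.5 ± 0.717 FPKM on day 1 (1.15-fold, adjusted p = 1.69e-05) and was at 55.6 ± 0.618 on day 3 (1.06-fold lower, adjusted p = 0.0327). Its day 3 call was lost in each fit without 1 control or 1 day 3 library (adjusted p = 0.0518 to 0.115). Hs3st3b1, a 3-O-sulfotransferase, fell 1.18-fold on day 1 (2.67 ± 0.0352 to 2.19 ± 0.0670 FPKM, adjusted p = 0.00521). With quantile normalization it was not called (adjusted p = 0.0623). Ndst2, Ndst3 and Hs3st1 were not called against control on either day, although Hs3st1 was called lower on day 3 without day 3 replicate 2 (log2 change -0.24, adjusted p = 0.0190) and without that library and control replicate 1 (-0.26, adjusted p = 0.0365).

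The extracellular sulfatases Sulf1 and Sulf2 remove 6-O-sulfate from finished heparan chains. Sulf1 fell on day 1 and was above control on day 3: it read 39.6, 41.1 and 39.5 FPKM in control, 29.1, 28.8 and 28.0 on day 1 and 45.5, 41.6 and 46.6 on day 3. No group overlapped another. It fell 1.37-fold on day 1 (log2 change -0.45, adjusted p = 1.27e-06) and was 1.12-fold higher on day 3 (0.17, adjusted p = 0.00975), and day 3 was 1.54-fold above day 1 (adjusted p = 2.73e-07). Sulf2 read 82.1, 86.7 and 82.7 FPKM in control, 83.8, 86.8 and 85.9 on day 1 and 89.6, 93.4 and 92.5 on day 3. It was not called on day 1 (log2 change 0.06, 95% interval -0.0066 to 0.13) and was 1.11-fold higher on day 3 (adjusted p = 0.00961). The day 3 call of Sulf2 was lost without control replicate 1 and day 3 replicate 2 together (adjusted p = 0.0612). The ratio of Sulf1 to Sulf2 was 0.478 ± 0.00399 in control, 0.335 ± 0.0109 on day 1 and 0.486 ± 0.0344 on day 3.

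The genes for both enzymes that make the sulfate donor PAPS changed, in opposite directions. Papss2 (chromosome 19, 32595669 to 32667187) read 61.7, 57.0 and 64.0 FPKM in control, 104, 96.0 and 89.8 on day 1 and 81.6, 72.7 and 81.1 on day 3. Papss1 (chromosome 3, 131564764 to 131643671) read 39.2, 41.3 and 41.9 FPKM in control, 32.5, 31.1 and 31.3 on day 1 and 34.3, 34.0 and 36.8 on day 3. For each gene the 3 groups did not overlap, and day 3 lay between the others.

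Papss2 was 1.62-fold higher on day 1 (95% interval 1.48 to 1.78, adjusted p = 2.59e-06) and 1.30-fold higher on day 3 (1.19 to 1.42, adjusted p = 0.00214). Papss1 was 1.26-fold lower on day 1 (adjusted p = 1.03e-05) and 1.15-fold lower on day 3 (adjusted p = 0.00308). Their ratio within a library was 1.57, 1.38 and 1.53 in control, 3.21, 3.08 and 2.87 on day 1 and 2.38, 2.14 and 2.20 on day 3. It stood 2.05-fold above control on day 1 and 1.50-fold on day 3. The exact two-sided permutation p was 0.1 for each, the smallest that 3 against 3 allows. Neither gene overlapped between groups and they moved apart, so this p was fixed beforehand and adds no support. The 4 calls against control held in each fit without 1 library.

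The remaining supply genes were also called on day 1. Slc26a2, a sulfate transporter of the cell membrane, rose from 3.68 ± 0.0988 to 5.12 ± 0.382 FPKM (1.41-fold, adjusted p = 0.000133) and was at 4.01 ± 0.317 on day 3. Slc35b2, which carries PAPS into the Golgi, fell 1.11-fold on day 1 and was 1.08-fold lower on day 3 (adjusted p = 0.0277). Its day 3 call was lost without control replicate 2 or 3 and in each fit without 1 day 3 library (adjusted p = 0.0605 to 0.0953). Ugdh, which makes the glucuronic acid precursor, fell 1.12-fold on day 1, from 44.5 ± 0.741 to 38.7 ± 1.65 FPKM, and was not called on day 3.

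**Figure D3:**
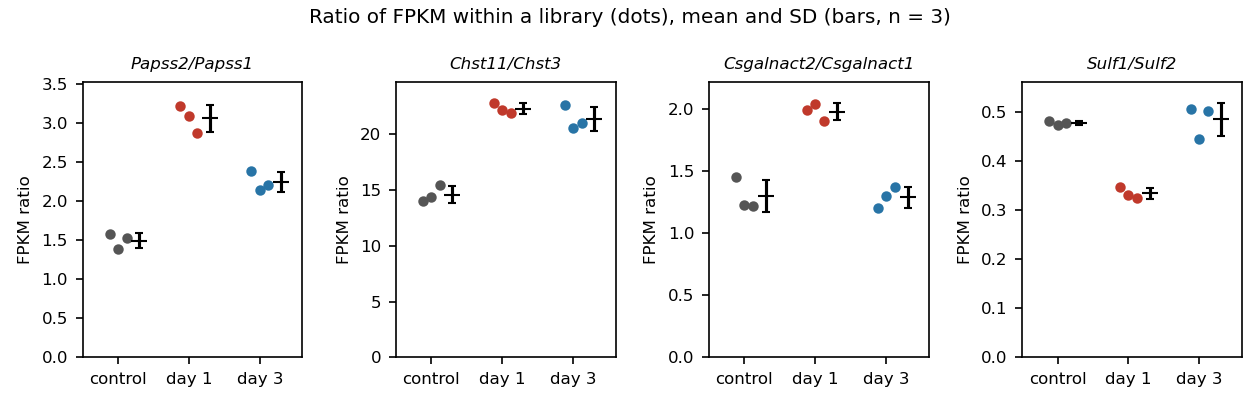
Ratio of the FPKM of a pair of related genes within each library (dots), with the mean and SD of 3 libraries beside each group. The ratio of Papss2 to Papss1 is highest on day 1 with day 3 in between, that of Chst11 to Chst3 is raised on both days, and the ratios of the Csgalnact and Sulf pairs on day 3 overlap control.

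On day 3 fewer members differed from control: 7 were higher and 6 lower, where 7.37% of all genes were higher and 6.45% lower. That is 31.7% of the members tested and 13.8% of all genes, and the median log2 change was 0.07 against 0.01 for all genes. The largest changes were those of Chst3 and Papss2, and 4 of the 13 reached 0.25 on the log2 scale. The share of all genes that did so on day 3 was not counted, so this count has no background beside it. Without 1 library the counts ran from 3 to 7 higher and 3 to 6 lower, and without rescaling between libraries they were 4 and 6. The calls of Papss1, Papss2, Sulf1, Sulf2 and Chst3 held in each of the 9 fits without 1 library. That of Sulf2 was lost without control replicate 1 and day 3 replicate 2 together (adjusted p = 0.0612). The calls of Xylt1, Chst14, Ust, Ndst1, Hs2st1, Hs6st2 and Slc35b2 were lost there too, while Glce, Chst15 and Hs3st1 gained one. In the fit of the 6 libraries compared, the calls of Chst11, Ndst1 and Hs6st2 were lost and Dse gained one. On that day no tested microglia marker was called, while 7 of 9 oligodendrocyte lineage, 3 of 10 astrocyte, 1 of 5 mural and 1 of 4 ependymal markers were lower. Fibroblast markers were higher in 4 and lower in 1 of 8, and 2 of 3 neuron markers and the 1 endothelial marker tested were higher. The part of these cells in the member counts was not tested.

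Between the days, 13 members were higher and 13 lower on day 3 than on day 1, where 27.9% of all genes were higher and 28.4% lower. The members called made up 63.4% of those tested, against 56.2% of all genes. Glce, Chsy1, Slc26a2, Ext1 and Hs2st1 had the largest falls, with log2 changes of -0.96, -0.42, -0.36, -0.34 and -0.33. Sulf1 (0.62), Csgalnact1 (0.32) and Hs3st3b1 (0.28) had the largest rises. Without filter, Chsy3 changed by -1.35 (adjusted p = 0.00116). All 9 microglia, 9 oligodendrocyte lineage and 4 ependymal markers tested were higher on day 3 than on day 1, as was the 1 endothelial marker. Astrocyte markers were higher in 5 and lower in 2 of 10, fibroblast markers split 4 and 4, mural markers were lower in 4 of 5 and no neuron marker was called. Their part in the member counts was not tested. This comparison shares the day 1 libraries with that of day 1 against control. Day 1 and day 3 also differ in time after the wash, and the harvest time of the controls is not given. A change in the response to peroxide and time in culture cannot be told apart.

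**Figure D4:**
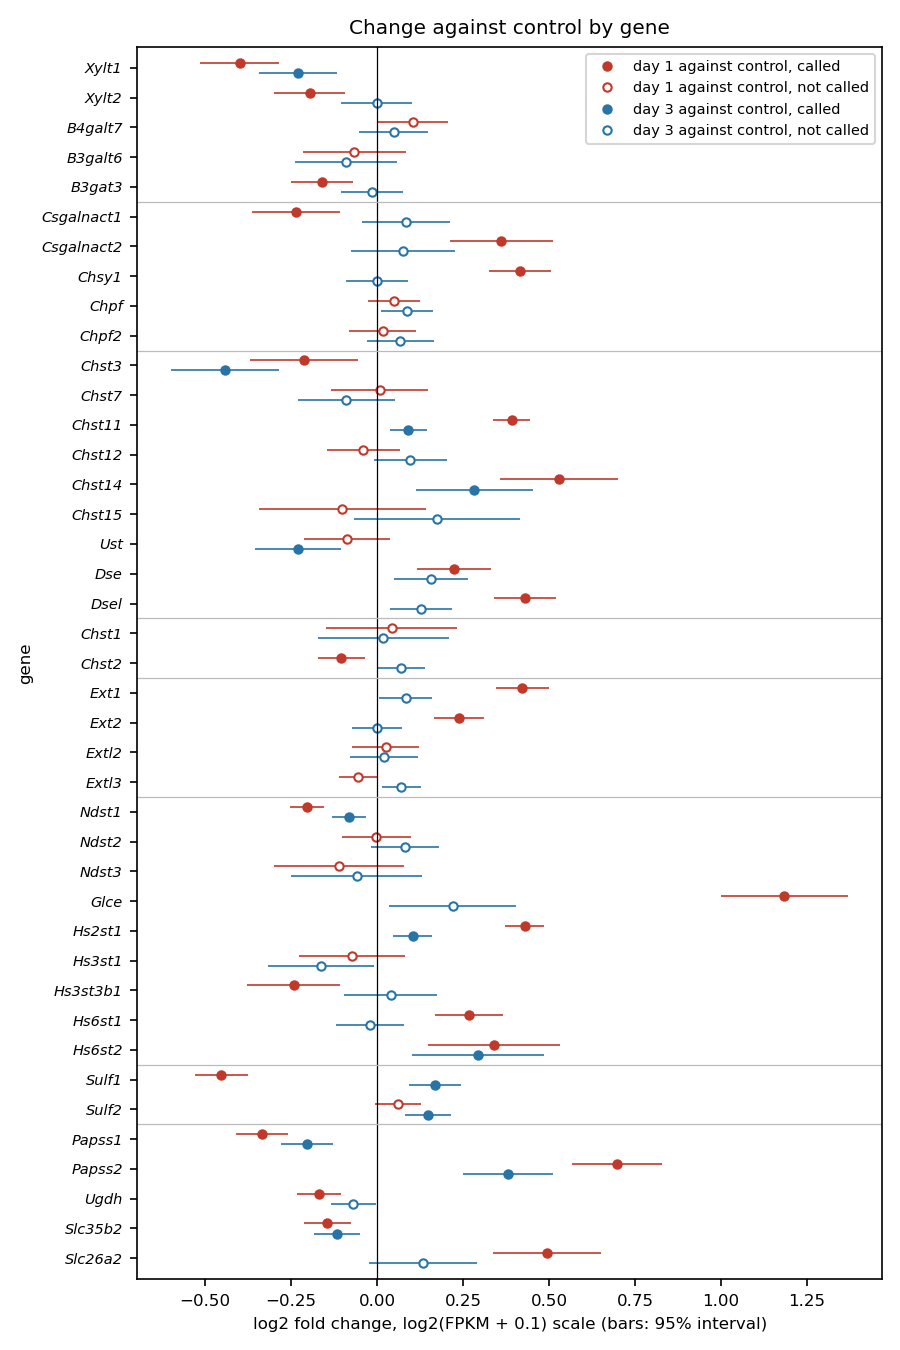
Log2 fold change of each of the 41 tested genes on day 1 (red) and day 3 (blue) against control, with unadjusted 95% intervals; filled dots were called. Glce and Papss2 lie farthest right and Sulf1 farthest left on day 1, and most day 3 dots are open and near 0.

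Other genes of the pathway were taken from lists set by role, and their counts stand beside the 62.2% of all genes called on day 1 and 13.8% on day 3. By direction, 31.1% of all genes were higher and 31.1% lower on day 1, and 7.37% and 6.45% on day 3. Of 15 further synthesis genes, 5 were tested, and 2 were higher and 2 lower on day 1. Pxylp1, the phosphatase that acts on the xylose of the linker, rose from 1.92 ± 0.0260 to 3.90 ± 0.108 FPKM (log2 change 1.02) and was at 2.25 ± 0.0243 on day 3, still called higher. Fam20b, the kinase of the same sugar, rose by 0.17 on day 1. Extl1 (-0.82) and B4galt4 (-0.24) fell on day 1, and on day 3 Pxylp1 was the 1 higher and B4galt4 (-0.14) the 1 lower. The other 10, among them Hs3st2, Ndst4 and Chst13, were below the filter.

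Among 14 tested genes of sugar and sulfate precursor supply, 8 were higher and none lower on day 1. That is 57.1% called, each of them higher, where 31.1% of all genes were higher. Gfpt2, which opens the hexosamine pathway that feeds amino sugars, rose from 3.91 ± 0.272 to 7.53 ± 0.152 FPKM (log2 change 0.96). Gnpnat1 of the same pathway rose by 0.49, and Uxs1, which makes the xylose donor of the linker, by 0.46. On day 3 Gfpt2 (0.35) and Uxs1 (0.21) were higher, and none was lower. Of 14 tested genes that degrade glycosaminoglycans in lysosomes, 3 were higher and 5 lower on day 1, again 57.1%. Among them, the sulfatase gene Ids (log2 change 0.29) and the hyaluronidase gene Hyal1 (0.20) rose, while the sulfatase gene Arsb (-0.34) and the iduronidase gene Idua (-0.31) fell. On day 3, 3 were higher, including Hyal1 (0.36) and Ids (0.10), and none was lower.

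The core proteins that carry the chains were called on day 1 in every tested case, where 62.2% of all genes were. Of 9 heparan sulfate cores, 5 were higher and 4 lower. Sdc1, encoding syndecan-1, rose from 13.8 ± 0.573 to 23.1 ± 1.09 FPKM (log2 change 0.77), Gpc1 by 0.62 and Gpc6 by 0.38, whereas Gpc3 (-0.47), Gpc2 (-0.22) and Sdc4 (-0.18) fell. On day 3, 4 were higher and none lower, led by Sdc1 (0.50), Gpc6 (0.27) and Gpc1 (0.18). Of 9 chondroitin and dermatan sulfate cores, 5 were higher and 4 lower on day 1. Cspg4 rose from 7.25 ± 0.493 to 16.8 ± 0.965 FPKM (1.23), Bgn, encoding biglycan, from 288 ± 7.72 to 627 ± 31.6 FPKM (1.15), and Cd44 by 0.88. Dcn, encoding decorin, fell from 45.1 ± 1.85 to 9.01 ± 1.50 FPKM (-2.29), Cspg5 fell by 0.70 and Ptprz1 by 0.30. On day 3 Bgn (0.41) and Cd44 (0.19) were higher and Bcan (-0.39) and Cspg5 (-0.27) lower. Cspg4 belongs to the mural list and Dcn to the fibroblast list above, and whether other cell types carried these changes was not tested.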

How the data were processed

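RNA levels in 9 libraries were taken from 1 table of the series; each column was matched to a library by its label, and 0 columns were left unmatched. The authors deposited FPKM per gene and library. The tools named per the submitters' processing notes are STAR 2.7.3a, cutadapt 2.6, DESeq2 and FastQC 0.12.1, and the builds mm10 and GRCm38. Counting program, annotation, filters and strand handling are details not given in the sources used here.

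These FPKM keep whole reads: for all 20350 genes above 0, integers for gene length and library total were found that turn each FPKM into a whole number of reads (tolerance 0.01 read, 100% of genes), summing to 99.91% to 99.94% of the totals. A level of 1 FPKM in a gene of 2 kb stands for 46.1 to 76.8 reads. The chi-square per degree of freedom between replicates was 1.75 to 4.76, above sampling noise.

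FPKM were rescaled by median-of-ratios factors (0.975 to 1.02). The 12611 genes averaging 1 FPKM or more were fitted as log2(FPKM + 0.1) over all 9 libraries with limma 3.58.1 (R 4.3.3, intensity trend, two-sided). A call needs a Benjamini-Hochberg adjusted p under 0.05. Fold changes are on this log2(FPKM + 0.1) scale, which understates changes of low genes; printed levels are not rescaled. The fit was also run on simulated reads with the same dispersion for all genes and few changed genes. That setting differs from these data, so no support is drawn from it. Alternatives were pseudocount, filter, scaling, threshold, libraries, replicate block and limma-voom on the recovered reads.

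The members and lists were chosen with earlier results of these data known. Values per library were to be printed for called members changed by at least 0.5 on the log2 scale against control, their close relatives and members under the filter. Those of Xylt1, Chsy1, Chst11, Chst3, Chst15, Ext1, Hs2st1, Sulf1 and Sulf2, the gene ratios and the motifs were chosen after the values were seen. Other lists name up to 3 of the largest called rises and falls. Some genes that this rule names are left out here. Figures were drawn with matplotlib 3.10.9.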

Additional observations from a re-analysis of the deposited data

Results flagged for a closer look

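Levels on day 1 and day 3 differed for 26 of 41 members (63.4%, against 56.2% of all genes). The day 3 libraries were compared directly with the day 1 libraries (limma, adjusted p under 0.05, 3 libraries a group). These groups also differ in time after the wash, and the harvest time of the controls is not given. A change in the response to peroxide and time in culture cannot be told apart. Log2 changes of day 3 against day 1 were negative for Glce (-0.96), Chsy1 (-0.42), Slc26a2 (-0.36), Ext1 (-0.34), Hs2st1 (-0.33), Papss2 (-0.32), Dsel (-0.30), Chst11 (-0.30), Csgalnact2 (-0.29), Hs6st1 (-0.29), Chst14 (-0.25), Ext2 (-0.24) and Chst3 (-0.23). They were positive for Sulf1 (0.62), Csgalnact1 (0.32), Hs3st3b1 (0.28), Xylt2 (0.19), Chst2 (0.17), Xylt1 (0.17), B3gat3 (0.15), Chst12 (0.14), Papss1 (0.13), Extl3 (0.12), Ndst1 (0.12), Ugdh (0.10) and Sulf2 (0.0873). The calls for Xylt1, Chst3, Chst12, Chst14, Sulf2 and Ugdh were lost in at least 1 fit without 1 library, with adjusted p of 0.0551 to 0.128 there: without day 1 replicate 1 for Chst12, Sulf2 and Ugdh, day 1 replicate 2 for Xylt1, Chst12 and Sulf2, and day 1 replicate 3 for Xylt1 and Chst14. The same held without day 3 replicate 1 for Chst3, Chst12 and Chst14, day 3 replicate 2 for Xylt1, Chst14 and Sulf2, and day 3 replicate 3 for Xylt1, Chst12 and Sulf2.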

How the results depend on the processing

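No tested member changed direction while called, in the reported fit or in the alternative, in the 20 or 21 alternatives run for each; other named genes were not run under them. Over members, comparisons and alternatives, 2378 values kept their side of the threshold, 138 lost a call and 31 gained one. The threshold of 0.01 and the cut of 0.25 on the log2 scale reuse the reported fit and could only remove calls. Part of this split was therefore fixed beforehand. On day 3 against control, 7 members higher became 4 without rescaling, and 3 at an adjusted p under 0.01, where 6 lower became 2; for day 3 against day 1, 13 higher became 8 at that threshold. Without control replicate 1 and day 3 replicate 2, the libraries with the most Rn45s (chosen after seeing the data), 3 members were lower on day 3. With a change of at least 0.25 also required (chosen after seeing the data), 3 members were lower on day 1, 3 were higher and 1 lower on day 3 against control, and 3 were higher against day 1. Leaving out 1 library at a time gave 14 to 15 higher and 11 to 12 lower on day 1, 3 to 7 and 3 to 6 on day 3, and 10 to 14 and 11 to 13 between the days; the cause was not tested. The replicate block gave 14 and 12, 8 and 6, and 14 and 13, and deviations of same-numbered libraries correlated at -0.079 to 0.111, so the numbers were not treated as pairs. limma-voom on the recovered reads gave 14 and 12, 10 and 6, and 14 and 14, with 3954 genes higher and 3916 lower on day 1 over the table. Over all genes, 929 were higher and 813 lower on day 3 against control in the reported fit. These counts were 1319 and 1143 with limma-voom, 969 and 838 with the replicate block, and 661 and 861 without rescaling. Counts over all genes were not made for fits with libraries left out, nor at an adjusted p under 0.01. With the 0.25 cut they were made for day 1 against control only. Member counts without such a share cannot be set against those of all genes. Depth limits Chsy3, with 29 to 104 reads, more than the other members.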

Other observations

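Across the 43 promoter windows of 34 members, a GC box (GGGCGG, either strand) stood in 27, or 62.8%, against 35.7% of all 32851 windows of the same length. CCAAT boxes stood in 39.5% of the member windows and 37.4% of all, TATA boxes (TATAAA) in 4.65% and 13.6%, and TEAD letters (GGAATG) in 20.9% and 14.7%. Antioxidant response cores (TGACNNNGC) stood in 8 windows of 7 genes, or 18.6%, AP-1 letters (TGANTCA) in 2.33% against 7.81%, and the cyclic AMP response letters (TGACGTCA) in 2.33% against 1.79%. Glce and Ugdh each hold 2 antioxidant response cores in a window; Glce was 2.27-fold higher and Ugdh 1.12-fold lower on day 1. No test of these shares was run, since windows of 1 gene overlap and the motifs were chosen with the values known.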
